A study of Mus musculus with 4 samples.

Results

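The colon epithelium of mice on a diet without heme was compared between the luminal surface and the crypts, with 1 array of pooled RNA from each compartment. The mice were male C57BL/6 animals, 11 weeks old, kept for 14 days on a diet high in fat (40% of energy) and low in calcium. The cells were collected with laser capture microdissection, in which a laser lifts chosen cells off a section, here of rolled and frozen colon, and the RNA of 4 mice was pooled for the surface and, from the same 4 mice, for the crypts. A matching pair of pools came from 3 other mice given that diet with the red meat pigment heme at 0.5 µmol/g, and serves below as a second pair. All 4 groups thus share the strain, the sex and the high fat, low calcium feed, and the pools do not show how single mice varied.

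The members are the genes whose higher value on the control pair was at least 5.75, the floor used here, which is the median gene value of the 4 arrays combined. They are 10864 of the 19938 genes analysed. Levels are log2 RMA values (a log2 scale of array brightness after background correction, normalization and summary over probes), and a difference is the surface level minus the crypt level. A gene is called higher or lower in surface cells when that difference is at least 2-fold, which is 1 on the log2 scale. With 1 array a side there is no replicate, so no test was possible and no standard deviation or p-value is given. The words higher and lower state size on these arrays. Levels of different genes are not compared, since probes differ in brightness.

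The colon epithelium renews itself from stem cells at the crypt base. Their daughters divide in the lower crypt under Wnt signals from the surrounding stroma, stop dividing as they move up, and reach the surface as absorptive colonocytes or secretory cells, where they are shed. Surface colonocytes take up salt, water and short-chain fatty acids and face the microbes of the lumen, whereas the crypts hold stem, dividing and deep secretory cells and secrete fluid.

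Of the genes at or above the floor, 1301 were higher in surface cells (12.0%) and 1464 were lower (13.5%). Each count of called genes below is to be read beside these shares. At least 4-fold differences were more frequent on the surface side, with 408 genes higher (3.76%) against 224 lower (2.06%). At 8-fold the counts were 141 and 13, and at 16-fold 42 and 3. The median difference was 1.60 among the higher genes, -1.39 among the lower genes and -0.05 over all genes at or above the floor. Near the 2-fold border, 386 genes differed by 1 to 1.1 and 424 by 0.9 to 1 in either direction, and near the floor 251 genes lay within 0.1 above and 256 within 0.1 below. The crypt level was below the floor for 244 of the higher genes and the surface level for 461 of the lower genes, where the size of a difference is least certain. When 32 was added to the linear values before the log2, here called the damped scale, 1058 genes were higher and 914 lower. The scaling between the arrays decides the balance. Ribosomal protein genes were themselves lower in surface cells, and centring the arrays on them added 1.07 to every difference, which gave 6450 higher and 184 lower genes (97.2% of calls higher, against 47.1% here). Under that scaling no gene with a difference above -2.07 stays lower, and this holds for all lower calls below.

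**Figure D1:**
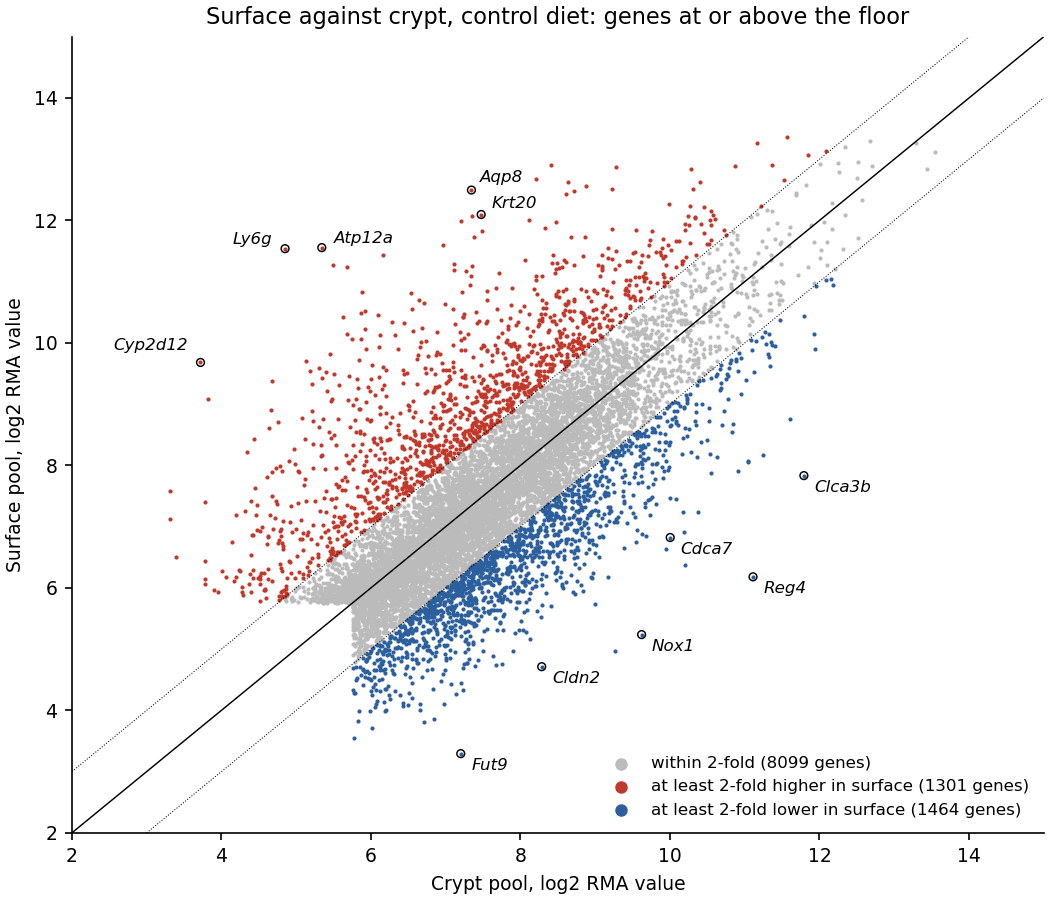
Level of each gene in the surface pool (vertical axis, log2 RMA value) against the crypt pool (horizontal axis, log2 RMA value) on the control diet, for the 10864 genes at or above the floor. Red points are the 1301 genes at least 2-fold higher in surface cells, blue points the 1464 lower, grey points the rest, and dotted lines mark 2-fold; the cloud reaches farther from the diagonal on the surface side, up to Ly6g at 6.69, than on the crypt side, down to Reg4 at -4.93.

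The labels of the compartments were first set against markers of the cells they should hold. Of 10 surface colonocyte markers 9 were higher in surface cells (median 4.21), and Muc3, a transmembrane mucin of the brush border, differed by 0.86. The 7 measured crypt base markers were all lower (median -2.46), while Ephb2 had no probe set of its own. These markers were chosen with earlier results of these data known, so the counts describe the pools and do not test the labels. Aqp8, Ceacam20, Krt20 and Cdca7 are also among the 15 largest differences on their sides. Pan-epithelial genes differed less, with 4 of 10 higher, a median of 0.86 and a range from 0.51 to 1.51, and the adhesion molecule gene Epcam read 11.86 in surface and 11.31 in crypt cells. Fewer cells of a type and less RNA per cell cannot be told apart in pooled tissue, here and in each result below.

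Markers of other cells that a dissected strip could carry were also present. Of 6 smooth muscle markers 3 were lower in surface cells (median -1.02, or 0.05 after centring on ribosomal protein genes), with a mean level of 7.28 against 8.17; they were Acta2 (-1.36), Tagln (-1.26) and Myh11 (-1.15), while Myl9 (-0.88), Cnn1 (-0.36) and Des (-0.30) did not pass. Of 7 fibroblast markers, Pdgfra (1.32) was higher, and the matrix proteoglycan genes Dcn (-2.01) and Lum (-2.19) were lower. The endothelial markers Kdr (1.44) and Plvap (1.11), 2 of 6, passed on the surface side, with a mean level of 7.37 in surface and 6.77 in crypt cells. Of 10 leukocyte markers 5 reached the floor and none was called, with differences from -0.49 to 0.50. None of the 5 markers of enteric glia and neurons with a probe set reached it. The part of these cells in the differences below was not tested. Among the genes named here, Plvap was under 2-fold on the damped scale.

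The largest differences on the surface side were led by Ly6g, which read 11.54 in surface and 4.85 in crypt cells, a difference of 6.69 or 103-fold. Ly6g is known as a surface antigen of neutrophils. Other neutrophil genes, S100a8 and S100a9, lay below the floor on both arrays (S100a9 read 3.99 and 4.28). Next came Atp12a, a subunit of the proton-potassium pump of the distal colon, at 11.56 against 5.34 (6.21). The cytochrome P450 gene Cyp2d12 read 9.68 against 3.72 (5.96), and the acute-phase gene Saa1 11.27 against 5.49 (5.78). All of these crypt levels were below the floor.

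Membrane transport genes among the 15 were Slc15a1, which imports di- and tripeptides (11.24 in surface, 5.68 in crypt cells), the water channel gene Aqp8 (12.50 and 7.34), Slc37a2, a sugar phosphate exchanger of the endoplasmic reticulum (10.83 and 5.88) and Slc9a3, which exchanges luminal sodium for protons (12.00 and 7.20). Nt5e, whose ectoenzyme makes adenosine from AMP at the cell surface, read 10.50 against 5.87. The remaining genes among the 15 were the inflammasome sensor gene Nlrp9b (5.27), the serine protease gene Prss30 (5.27), the cytochrome P450 gene Cyp3a13 (4.80), Sectm1b (4.73), the adhesion molecule gene Ceacam20 (4.63) and Krt20 (4.62), the keratin of differentiated colonocytes. In 7 of the 15 the crypt level was below the floor, whereas the surface level was at least 9 in all 15.

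On the crypt side Reg4, a lectin gene of deep crypt secretory cells, read 6.18 in surface and 11.11 in crypt cells, a difference of -4.93. Nox1, the superoxide-generating oxidase of the colon epithelium, read 5.24 against 9.62 (-4.38). The paralogs Clca3a2 (4.97 and 9.26) and Clca3b (7.83 and 11.79) of the Clca family followed. Fut9, which adds fucose to terminal glycans, read 3.29 against 7.20, and Cldn2, a claudin that lets cations and water pass between cells, 4.71 against 8.28. Surface levels of Nox1, Clca3a2, Fut9 and Cldn2 were below the floor.

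The other genes among the 15 covered several roles. Cd177, another gene known from neutrophils, read 6.64 in surface and 9.95 in crypt cells and so lay on the opposite side from Ly6g. Aqp1, a second water channel gene, read 5.73 against 9.0, opposite to Aqp8. Cdca7, a chromatin gene induced by Myc and E2F, read 6.82 against 10.00, and Gpx2, the glutathione peroxidase of the gut epithelium, 7.91 against 10.91. The rest were Slc12a8 (-3.28), Nxpe2 (-3.13), the matricellular protein gene Ccn3 (-3.06), the galactosyltransferase gene B3galt2 (-3.0) and the replicative helicase gene Mcm6 (-3.0). In 6 of these 15 genes the surface level was below the floor.

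**Figure D2:**
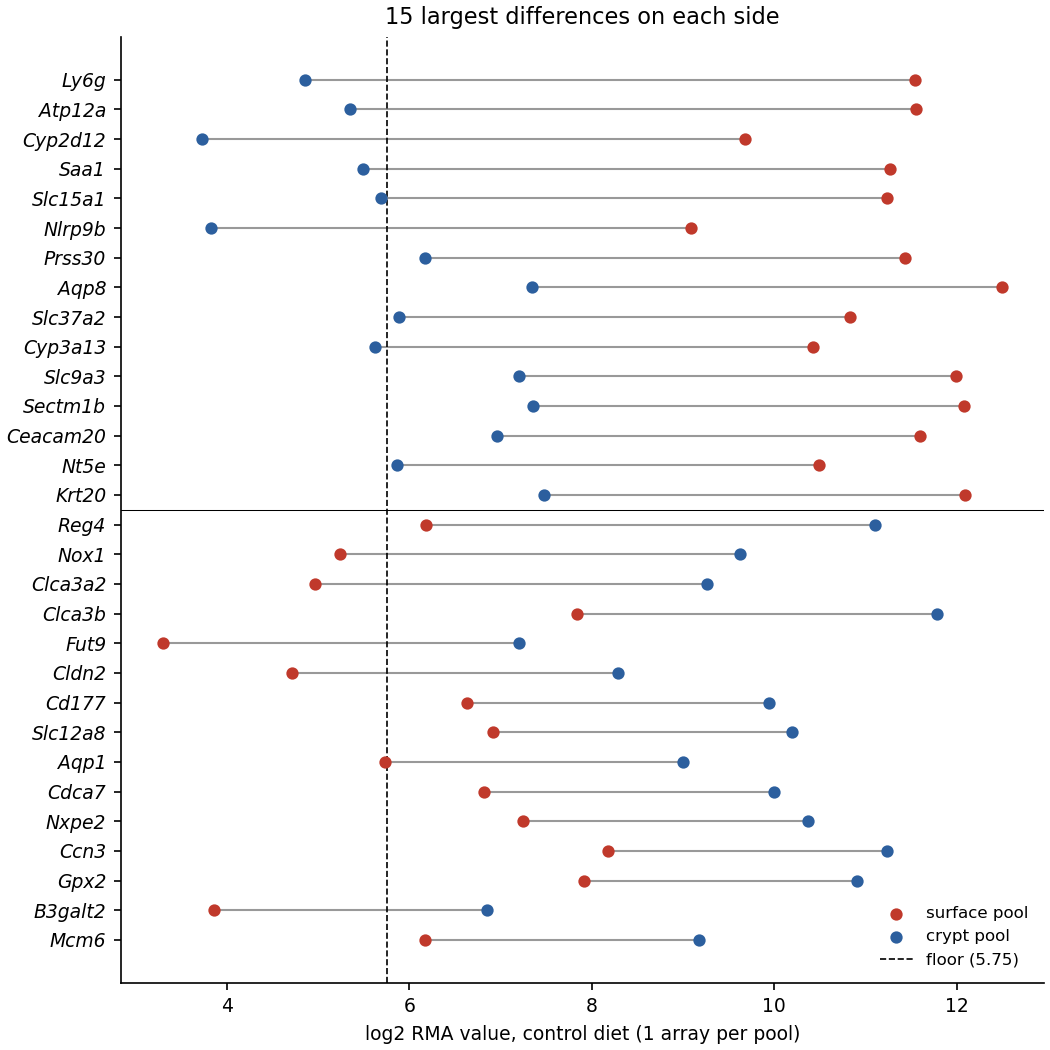
Levels of the 15 genes with the largest difference on each side in the surface pool (red) and the crypt pool (blue) on the control diet, on the log2 RMA scale, with the floor as a dashed line. The surface-side genes reach high surface levels while their crypt levels scatter about the floor, and the crypt-side differences are smaller, from -3.0 to -4.93.

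Transcription factors were grouped by lineage. Of 16 factors listed under the absorptive lineage 8 were higher in surface cells and none lower (median 0.95). Members of this list, such as Klf4 and Tcf7l2, are not all particular to that lineage. Klf4, a factor that stops the cell cycle and is needed for colonic differentiation, read 10.88 against 8.18 (2.70). Tcf7l2, the main nuclear partner of beta-catenin, was on this side too, at 10.89 against 8.61 (2.28). Isx, which represses vitamin A conversion in the gut, differed by 2.19, and Hnf4a (1.48), Prdm1 (1.40) and Klf3 (1.26) were also higher. Of those named, Prdm1 did not meet the size rule on the damped scale.

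Crypt and progenitor factors lay on the other side, with 10 of 16 lower and 1 higher (median -1.62). The largest differences were those of Myb (6.74 in surface, 9.54 in crypt cells), Myc (6.05 and 8.80) and Etv5 (5.71 and 8.41), which respectively maintain crypt progenitors, drive growth and answer to MAP kinase signals. Also lower were the repressor of cell cycle genes E2f8 (-2.50), the stem cell factor Ascl2 (-2.31) and the homeodomain-only gene Hopx (-2.06). The exception was Id1, an inhibitor of helix-loop-helix factors and a BMP target, at 1.71. Id1 was called on the heme pair too (1.34).

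Factors of the secretory lineage were lower in 3 of 9 (median -0.63, or 0.44 after centring on ribosomal protein genes). These were the membrane-bound factors Creb3l4 (6.33 in surface, 8.78 in crypt cells) and Creb3l1 (8.19 and 10.54), both linked to secretory capacity, and the goblet cell factor Spdef (7.97 and 9.63). Atoh1, the master factor of the lineage, differed by -0.93, and Foxa2 by -0.63, and neither passed.

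Of 23 nuclear receptor genes 7 were higher in surface cells and none lower (median 0.55). They included the xenobiotic sensors Nr1i3 (CAR; 6.97 in surface, 4.80 in crypt cells) and Nr1i2 (PXR; 9.72 and 8.30). The mineralocorticoid receptor gene Nr3c2, through which aldosterone raises sodium uptake, read 10.69 against 8.63. The bile acid receptor gene Nr1h4 (1.71) and the shared partner Rxra (1.42) were higher as well, and so was Nr1d1 (1.27), a clock repressor. The list holds receptors for lipids, hormones and foreign compounds, and in 17 of its 23 members the difference was above 0.

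Wnt signalling was next compared at the level of ligand receptors, feedback inhibitors and targets. Of 12 Wnt targets of the crypt all 12 were lower in surface cells (median -2.10). Lgr5, Ascl2, Axin2, Rnf43 and Cdca7 of this list were already counted as crypt base markers, and Ascl2, Myc and Sox9 as progenitor factors. Lgr5, the receptor that marks crypt base stem cells, read 4.76 in surface and 7.75 in crypt cells, and Axin2, a feedback inhibitor that Wnt itself induces, 5.63 against 8.09. Cyclin D1, Ccnd1, read 7.72 against 9.62. Among receptors and inhibitors 8 of 16 were lower (median -0.97, or 0.10 after centring on ribosomal protein genes). The 8 include Znrf3, which removes Wnt receptors from the membrane (-1.65), and the secreted inhibitor gene Sfrp1 (-1.59). Lgr5, Axin2, Rnf43 and Znrf3, all among the 8, were already counted as Wnt targets, so the lists are not separate. The receptor genes of the frizzled family did not go one way, with Fzd7 at 6.86 in surface and 8.45 in crypt cells and Fzd5 at 8.83 and 7.31. Fzd5 was the 1 member of this list called higher (1.51).

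In the BMP pathway, which opposes Wnt signals and acts toward the top of the crypt, the ligand gene Bmp2 read 9.50 in surface and 5.5 in crypt cells, a difference of 3.99. Bmp4, a ligand made mainly by stromal cells, differed by -0.65 and was not called. The inhibitory mediator Smad7, a feedback target, read 9.27 against 6.88, and the target genes Id1 (1.71) and Id3 (1.37) were higher as well. The BMP antagonist gene Grem1 (5.34 and 6.53) and the hedgehog antagonist gene Hhip (5.59 and 7.15) were lower. Both are known from stromal cells under the crypt, and the smooth muscle markers differed the same way (median -1.02, or 0.05 after centring on ribosomal protein genes); their part in these values was not tested. In all 6 of 19 genes were higher and 2 lower. Of the genes named here, Grem1 did not pass on the damped scale.

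Notch signalling, which keeps progenitors dividing and diverts cells from the secretory fate, was represented by 14 genes, of which 5 were lower and none higher (median -0.76, or 0.31 after centring on ribosomal protein genes). The receptor gene Notch1 read 7.13 in surface and 8.80 in crypt cells, and Lfng, which modifies Notch receptors with sugars, 5.48 against 7.25. The ligand gene Jag1 (-0.86) and the target Nrarp (-0.86) did not pass. Damping left 2 of the 14 lower.

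Eph receptors and ephrins sort cells along the crypt by repulsion. The ephrin genes Efnb2 (10.31 in surface, 7.12 in crypt cells) and Efna1 (9.68 and 7.09) were higher in surface cells, whereas the receptor genes Ephb4 (7.06 and 9.43) and Epha4 (5.61 and 7.51) were lower, as was Ephb3 (-1.82). Receptor genes were not all on that side, since Epha2 read 8.05 against 6.25 and Epha1 (1.55) was higher too. The third ephrin gene called, Efnb1 (1.69), was higher. In all 5 of 10 were higher and 3 lower.

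Of 10 genes of the EGF receptor family, its ligands and its inhibitors, 4 were higher and 2 lower. Errfi1, an inhibitor of the receptor kinase that the pathway itself induces, read 10.70 in surface and 8.29 in crypt cells. The receptors Erbb2 (1.60) and Erbb3 (1.55) and the ligand gene Hbegf (1.67) were higher too, while Egfr itself differed by 0.12. The ligand gene Egf (-1.04) was lower, though not after centring on array medians and with its sign turned (0.026) after centring on ribosomal protein genes, and the ligand genes Nrg1 (0.98), Tgfa (0.78) and Btc (0.08) did not pass. Lrig1, a membrane inhibitor of the receptors and a marker of crypt stem cells, read 6.85 against 9.69. The inhibitors Errfi1 and Lrig1 thus lay on opposite sides, by 2.41 and -2.84. Among those named, damping took Egf below the size rule.

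Genes of cell division lay on the crypt side. All 23 mitosis genes at or above the floor were lower in surface cells (median -1.99). Ccna2, the cyclin of S phase and mitotic entry, read 5.93 in surface and 8.71 in crypt cells. Mki67, which encodes the proliferation antigen Ki-67, read 6.50 against 9.05, and Kif11, the motor that separates the spindle poles, 4.96 against 7.50. The cytokinesis scaffold gene Anln read 4.43 against 7.08, the checkpoint kinase gene Bub1 4.11 against 6.65 and the kinetochore motor gene Cenpe 4.35 against 6.83. On the damped scale all 23 differences stayed below 0 and 19 of 23 passed the size rule. The 2 probe sets of Top2a, disagreed, at -2.96 and 0.16, and their mean did not pass on the damped scale.

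DNA replication genes were lower in 18 of 24 and higher in none (median -1.54). The 6 subunits of the replicative helicase were all lower, from -3.0 for Mcm6 (6.17 in surface, 9.17 in crypt cells) to -1.99 for Mcm4. Prim1, the primase that starts each new strand, read 4.11 against 6.98, and Rrm1, the large subunit of ribonucleotide reductase, 6.38 against 8.85. Genes of the list that did not pass include Cdc6 (-0.66) and Tk1 (-0.48). Damping left 13 of the 24 lower, with all 24 differences still below 0.

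Genes that start the cycle were set beside those that stop it. The kinase gene Cdk4 read 8.14 in surface and 10.36 in crypt cells, Cdk6 (-2.09) and the cyclin gene Ccnd2 (-2.28) were likewise lower, and 5 of 17 genes were lower in all. The 5 that were higher were led by the inhibitor Cdkn2b, which read 9.31 in surface and 6.17 in crypt cells and whose product binds the kinases that Cdk4 and Cdk6 encode. The inhibitor gene Cdkn1c (1.79) was higher as well, and Btg1 (1.74), Btg2 (1.47) and Rb1 (1.16) complete the 5. The inhibitor genes Cdkn2d (0.67), Cdkn1b (-0.13) and Cdkn2c (-0.91) did not pass, nor did the cyclin genes Ccnd3 (-0.32) and Ccne1 (-0.56). The list median was -0.13, or 0.94 after centring on ribosomal protein genes and 0.01 with the brightest probe set of each gene.

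Promoters of the division genes were then examined for short motifs, in windows from 250 bases before to 50 after each start in the RefSeq promoter table (build GRCm38.p6), on both strands. A promoter was found for 19 of the 23 mitosis genes, with 21 promoters in all. CCAAT, the box bound by NF-Y, was in 85.7% of them and TTTGAA, the core of the cell cycle genes homology region, in 81.0%, and 76.2% held both. Among the 11095 promoters of genes at or above the floor the shares were 37.0%, 11.8% and 4.65%, and among all 32851 promoters 37.4%, 17.9% and 6.95%. Both motifs together were in 11.9% of the promoters of genes at least 4-fold lower in surface cells and in 4.85% of those at least 4-fold higher. The 4-fold lower genes include mitosis genes, among them Mki67 and Kif11, so the 11.9% is not separate from the share of that list. These are matches of letters and not measured binding. The promoters of Mki67 (chr7:135716380-135716629, minus strand) and Kif11 (chr19:37376132-37376381, plus strand) are shown because, of the mitosis genes with both motifs, they had the largest differences. Each covers the 250 bases before the start, 5′ to 3′, and capitals mark CCAAT and TTTGAA or their reverse complements ATTGG and TTCAAA.
Mki67: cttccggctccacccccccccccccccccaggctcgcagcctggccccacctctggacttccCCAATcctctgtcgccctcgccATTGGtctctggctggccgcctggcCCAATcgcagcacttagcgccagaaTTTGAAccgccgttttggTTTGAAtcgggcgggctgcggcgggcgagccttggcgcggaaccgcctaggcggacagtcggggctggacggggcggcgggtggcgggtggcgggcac
Kif11: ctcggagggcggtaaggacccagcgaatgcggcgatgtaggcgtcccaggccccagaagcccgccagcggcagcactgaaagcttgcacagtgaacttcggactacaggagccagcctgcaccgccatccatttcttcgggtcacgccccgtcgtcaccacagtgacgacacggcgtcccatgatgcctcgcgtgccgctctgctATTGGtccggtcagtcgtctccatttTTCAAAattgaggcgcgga
In Mki67 the 3 CCAAT matches begin 188, 166 and 141 bases before the start and the TTTGAA matches 116 and 98 bases before it. Kif11 holds 1 match of each, which begin 45 and 19 bases before the start.

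A further motif was counted for the replication genes. TTCCCGC, a form of the E2F site, was in 44.0% of 25 promoters of this list, against 8.14% of the promoters of genes at or above the floor and 4.60% of all promoters, while it was in 0 of the 21 mitosis promoters. CCAAT was in 56.0% of the replication promoters and TTTGAA in 12.0%. Prim1 (chr10:128014965-128015214, plus strand) is shown as the gene of this list with the largest difference that holds it before its start, and was chosen after the shares were seen. Capitals mark the motif, which begins 15 bases before the start.
Prim1: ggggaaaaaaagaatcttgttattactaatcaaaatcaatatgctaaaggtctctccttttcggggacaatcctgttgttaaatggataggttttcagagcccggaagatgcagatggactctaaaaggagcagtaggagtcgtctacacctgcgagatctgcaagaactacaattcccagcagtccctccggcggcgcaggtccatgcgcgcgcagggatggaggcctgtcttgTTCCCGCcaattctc

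Genes of cell growth followed those of division. Of 18 ribosome biogenesis genes 17 were lower in surface cells (median -1.75), among them Dkc1, the pseudouridine synthase of small nucleolar RNPs (4.97 in surface, 7.90 in crypt cells), and Nop56 (7.19 and 9.73), of the complex that methylates ribosomal RNA. The RNA polymerase I subunit gene Polr1b (-2.35) and Gnl3, which encodes nucleostemin (-2.34), were lower too. Nucleotide and polyamine synthesis was lower in 15 of 20 genes (median -1.62), such as Cad, which starts pyrimidine synthesis (6.15 and 8.28), and the purine enzyme genes Gart (6.78 and 8.95) and Atic (7.45 and 9.74). None of either list was higher.

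The proteins of the ribosome itself differed by less. Of 46 cytosolic ribosomal protein genes 29 were lower and none higher (median -1.09), within a narrow range from -1.77 to -0.28; after centring on these genes their median is 0 by construction. Rpl12 read 5.17 in surface and 6.94 in crypt cells and Rps15a 6.94 and 8.53. Translation factors and tRNA synthetases were lower in 10 of 23 (median -0.78, or 0.29 after centring), led by the synthetase genes Vars (-2.28) and Iars (-2.06), and the mitochondrial ribosome in 7 of 24 (median -0.84, or 0.23 after centring), led by Mrps18b (-1.42) and Mrpl37 (-1.37). Damping left 3 of the 24 mitochondrial ribosome genes lower.

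Of the chromatin regulators, many of which act at replication, 11 of 20 were lower and 1 higher (median -1.33). Uhrf1, which directs maintenance methylation of DNA to new strands, read 5.15 in surface and 7.49 in crypt cells, and the remodeler gene Hells 5.77 against 7.95. The histone chaperone genes Chaf1b (-2.18) and Asf1b (-2.01) were also lower. The exception was Tet2, an enzyme that oxidises methylated cytosine, at 8.17 in surface and 6.90 in crypt cells, a difference of 1.27.

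**Figure D3:**
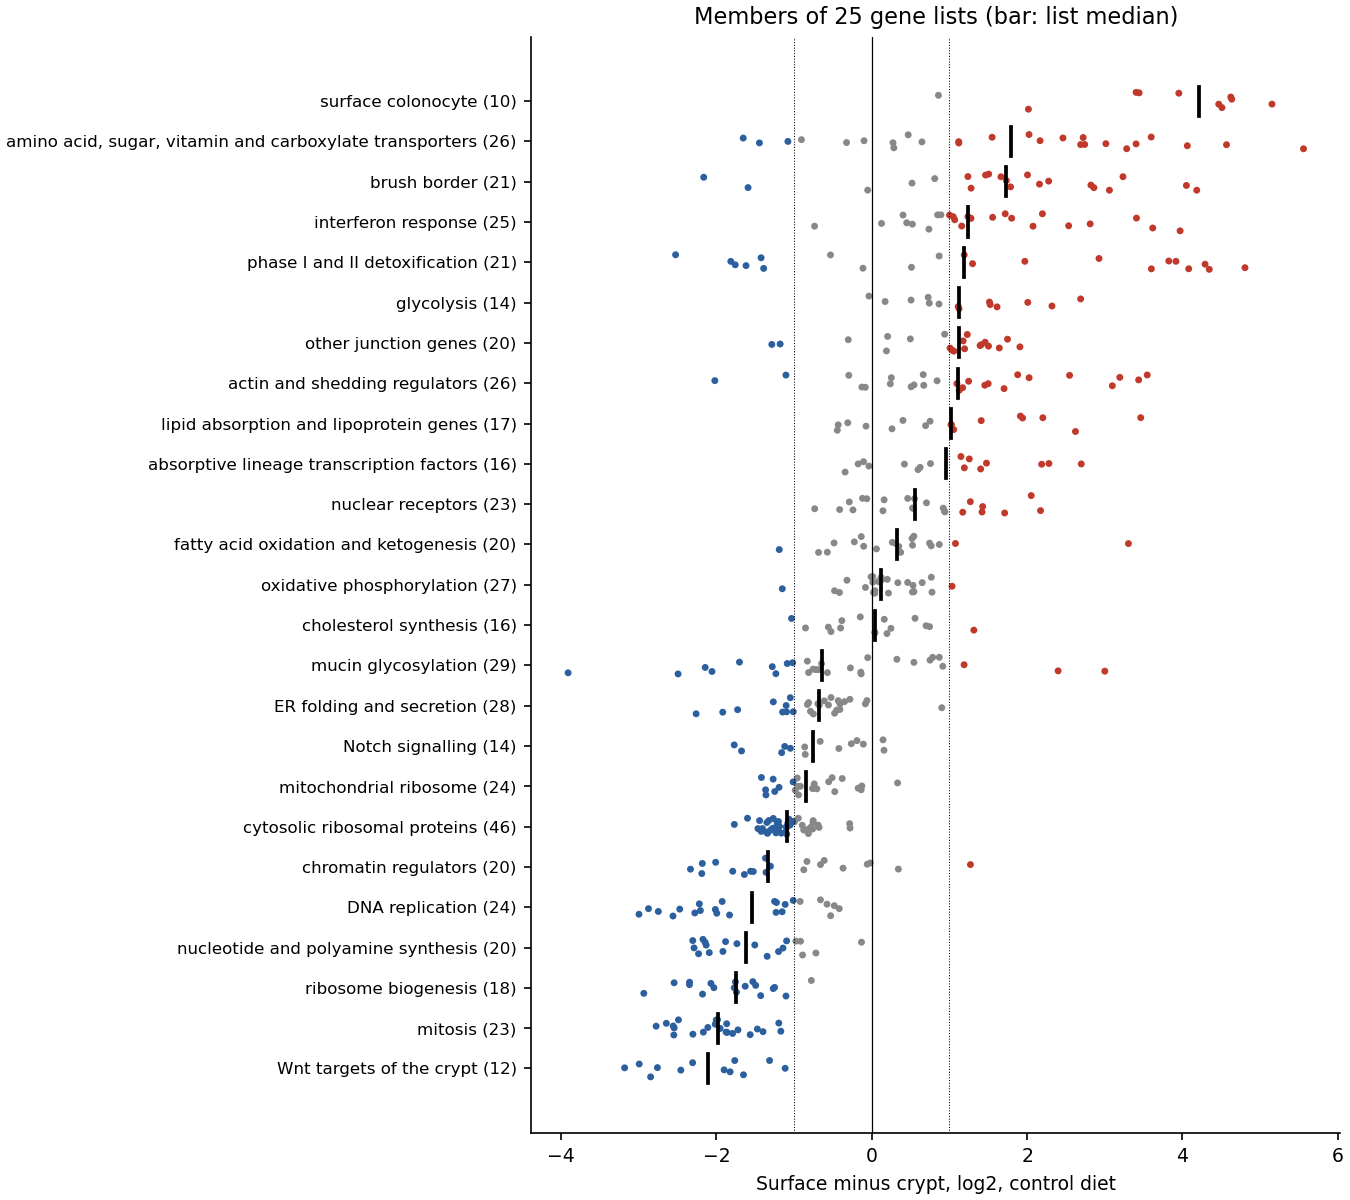
Surface minus crypt difference (horizontal axis, log2) on the control diet for members of 25 gene lists, with the number at or above the floor in parentheses; red points are at least 2-fold higher in surface cells, blue points lower, and bars mark list medians. Division and growth lists lie to the left, down to -2.10 for Wnt targets, and absorption lists to the right; the medians of the Notch, mitochondrial ribosome, endoplasmic reticulum and mucin glycosylation lists turn positive after centring on ribosomal protein genes and that of cholesterol synthesis turns negative after centring on reference genes.

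Energy metabolism genes differed by pathway. Of 14 glycolysis genes 8 were higher in surface cells and none lower (median 1.12). The glucose importer gene Slc2a1 read 11.25 in surface and 8.56 in crypt cells, and the genes of the committed steps were higher with it, Hk2 at 10.65 against 8.64 and Pfkp at 10.79 against 8.47. The last enzymes of the path, Pkm (1.61) and Ldha (1.52), followed, as did Pdk4 (1.53), a kinase that holds pyruvate back from the mitochondrion. Hk1 differed by 0.51, and its probe sets gave opposite signs. After damping, of the named genes Pdk4 did not pass.

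Oxidative phosphorylation genes differed little, with 1 of 27 higher, 1 lower and a median of 0.12. The complex I genes Ndufa1 (1.03) and Ndufa4 (-1.15) were the called members. Ndufa1 did not pass on the damped scale or after centring on reference genes. Fatty acid oxidation had 2 higher and 1 lower of 20 genes (median 0.33). Slc25a20, the mitochondrial carnitine carrier, read 11.36 in surface and 8.06 in crypt cells, a difference of 3.30 that stood apart from the rest of the list, where the next gene, Cpt2 (1.08), did not pass on the damped scale. Acat1, an enzyme of ketone metabolism, read 8.48 against 9.67. Cholesterol synthesis genes had 1 higher, Sc5d (1.32), and 1 lower of 16.

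Genes of lipid absorption were higher in surface cells in 9 of 17 and lower in none (median 1.02). Apob, the structural protein of secreted lipoproteins, read 10.56 in surface and 7.10 in crypt cells. Dgat2, which makes triglyceride, read 9.88 against 7.26, and the fatty acid binding protein gene Fabp2 10.47 against 8.27. The sterol exporter gene Abcg5 (1.94) and the lipid droplet coat gene Plin2 (1.91) were higher too. The fatty acid receptor gene Cd36 differed by -0.31.

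Detoxification genes fell on both sides. Of 21 genes 11 were higher and 6 lower (median 1.19). On the surface side were cytochrome P450 genes, Cyp3a13 at 10.43 against 5.62, Cyp2d34 at 11.72 against 7.38 and Cyp4f14 at 10.82 against 6.53, and the carboxylesterase genes Ces2a (11.19 and 7.11) and Ces2e (11.26 and 7.35). Members of the Cyp2d and Ces2 clusters are close paralogs, so their probes may share signal. On the crypt side were conjugating enzymes of the glutathione transferase family, Gstm1 at 7.47 in surface and 10.00 in crypt cells (-2.52) and Gstm3 (-1.81), and the epoxide hydrolase gene Ephx1 (-1.76). Sulfotransferase genes parted, with Sult1b1 (2.93) higher and Sult1a1 (-1.62) lower.

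Sodium, chloride, potassium and water transporters and channels were called on both sides, 9 of 22 genes on the surface side and 7 on the crypt side. Exchangers of absorption were among the higher genes, Slc9a3 at 12.00 in surface and 7.20 in crypt cells, Slc9a2 at 12.01 and 8.11, and Slc26a3, which takes up chloride for bicarbonate, at 12.67 and 8.20. The 3 subunit genes of the epithelial sodium channel were on this side too, Scnn1a at 10.40 against 7.86, Scnn1b at 6.53 against 4.39 and Scnn1g at 7.18 against 4.20; the crypt levels of Scnn1b and Scnn1g were below the floor.

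Genes known for fluid secretion were among the lower ones. Cftr, the chloride channel of fluid secretion, read 7.92 in surface and 9.97 in crypt cells, and Slc12a2, which loads the cell with chloride from the blood side, 8.76 against 11.60. The potassium channel genes that sustain this secretion were lower with them, Kcnn4 at 6.18 against 8.94, Kcnq1 at 7.43 against 9.71 and its partner Kcne3 at 8.07 against 11.04. Ano1, a calcium-activated chloride channel gene, was higher, at 10.40 against 8.29. The sodium pump subunit gene Atp1b1 (0.73), the cotransporter genes Slc12a7 (0.72) and Slc4a4 (0.16), the water channel gene Aqp4 (0.32) and the anion channel gene Best2 (-0.29) did not pass.

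Carbonic anhydrases, which supply protons and bicarbonate for these exchangers, had 3 higher and 1 lower of 9. Car4, an enzyme on the outer membrane, read 12.91 in surface and 8.40 in crypt cells, and Car1 12.84 against 10.28. Car2, of the cytosol, differed by 0.22, and Car8, which lacks catalytic activity, read 6.69 against 7.94. Car3 (1.38) was the other member called higher. Of the named genes, Car3 was under 2-fold after damping.

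Nutrient transporters were higher in surface cells in 16 of 26 and lower in 3 (median 1.79). After the peptide importer gene Slc15a1 (5.56) came the phosphate carriers Slc34a2 (9.70 in surface, 5.13 in crypt cells) and Slc20a1 (12.87 and 9.27), the dicarboxylate carrier gene Slc13a2 (10.34 and 6.28), Slc51b, a partner in the export of bile acids (8.76 and 5.35) and Slc3a1, a subunit of the cystine and basic amino acid importer (9.08 and 5.80). The 3 on the crypt side were all amino acid carriers, of which Slc7a5 (6.34 and 8.00) and Slc1a5 (8.66 and 10.11) import large neutral amino acids and glutamine into growing cells, and the third, Slc7a7 (-1.08), did not pass on the damped scale or after centring on array medians. The butyrate carrier gene Slc16a1 read 10.76 against 9.21, whereas the sodium-coupled carrier gene Slc5a8 for the same compounds differed by -0.10.

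**Figure D4:**
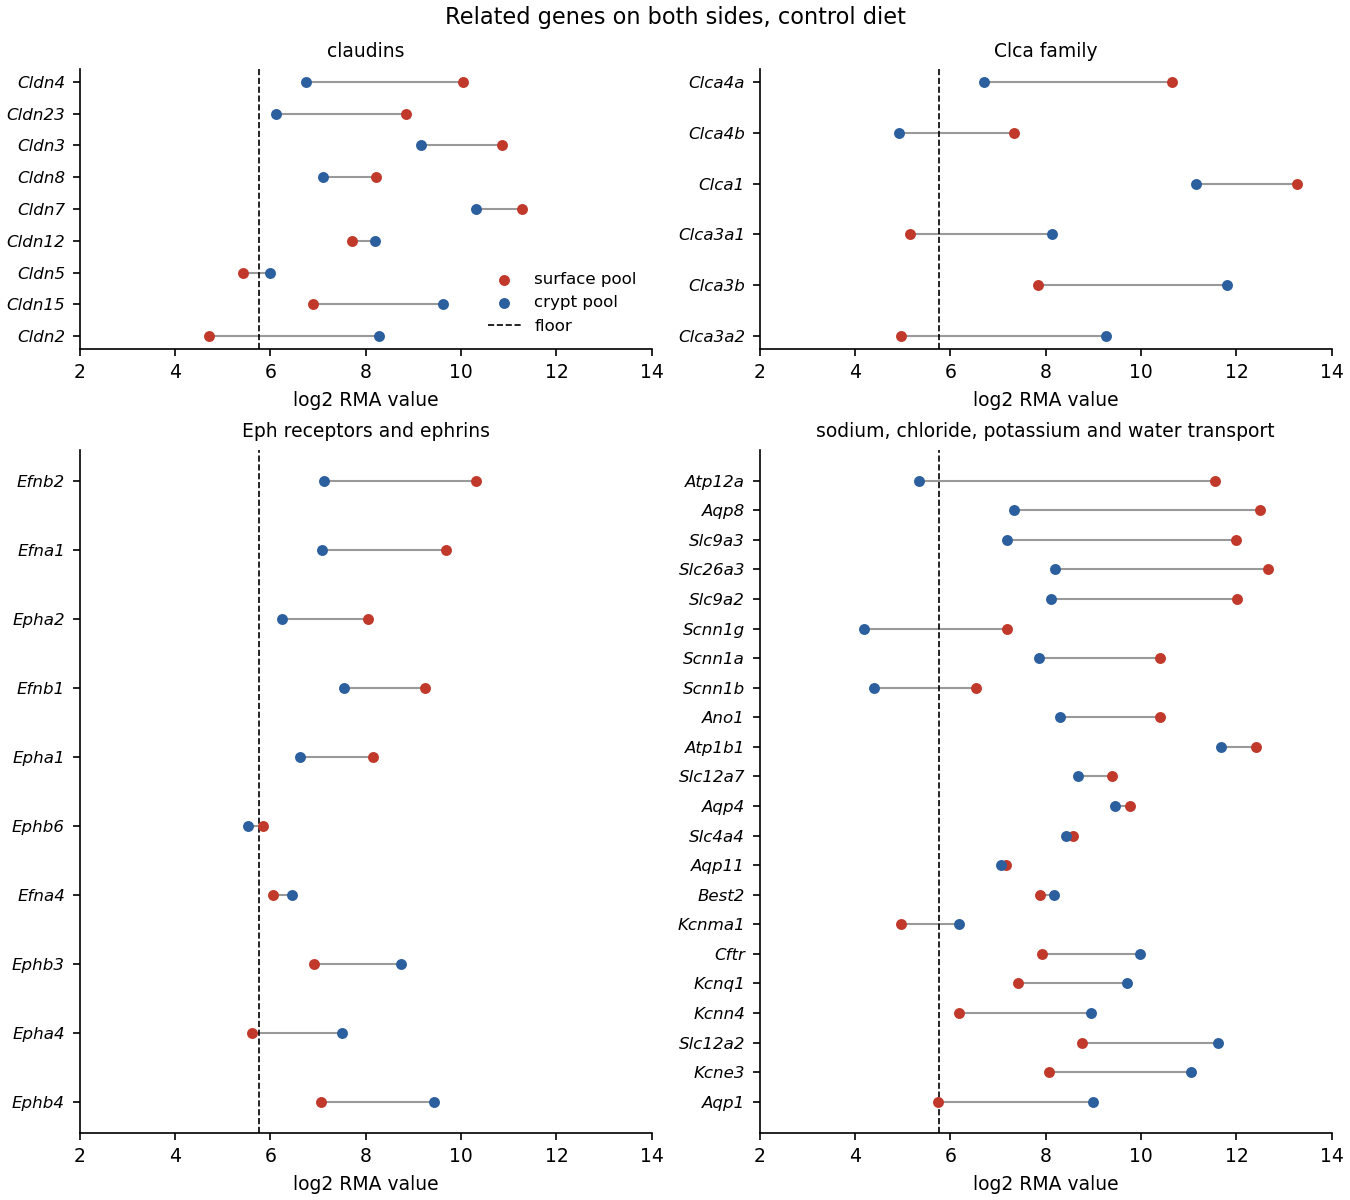
Levels in the surface pool (red) and the crypt pool (blue) on the control diet, log2 RMA scale, for the claudin, Clca, Eph and ephrin, and ion and water transport genes at or above the floor (dashed line). In each panel some members are higher in surface cells and related members are lower, with 3.29 for Cldn4 against -3.57 for Cldn2 and 5.15 for Aqp8 against -3.26 for Aqp1.

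The brush border, the layer of microvilli on absorptive cells, was represented by 21 genes, and 16 of them were higher at the surface against 2 lower (median 1.73). The membrane proteases of the meprin family were highest in difference, Mep1a at 11.29 against 7.11 and Mep1b at 10.70 against 6.65. The microvillar cadherins Cdhr2 (11.74 and 8.68) and Cdhr5 (11.73 and 8.87), which link microvilli tip to tip, and the scaffold gene Slc9a3r1 (11.31 and 8.49) were higher as well. The intestinal alkaline phosphatase gene Alpi read 7.96 against 4.73. Lower were Dpp4, a membrane peptidase, at 7.12 in surface and 9.28 in crypt cells, and Baiap2l2 (-1.59).

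Tight junction genes differed in kind between the compartments. Of 9 claudin genes 4 were higher and 2 lower in surface cells. Higher were Cldn4 at 10.03 in surface and 6.74 in crypt cells, Cldn23 at 8.84 and 6.12, Cldn3 at 10.85 and 9.16 and Cldn8 at 8.21 and 7.10, of which Cldn3, Cldn4 and Cldn8 are known to tighten the junction. The pore-forming claudins Cldn2 (4.71 and 8.28) and Cldn15 (6.89 and 9.63) were lower. Cldn7 (0.95), Cldn12 (-0.49) and Cldn5 (-0.58), a claudin of endothelium, did not pass. Among the genes named here, Cldn8 was under 2-fold on the damped scale.

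Other junction genes were higher in 13 of 20 and lower in 2 (median 1.12). They cover desmosomes, with Dsg2 at 11.34 in surface and 9.43 in crypt cells, tight junction plaques, with Tjp1 at 10.99 and 9.24, and adhesion, with Cdh17 at 11.85 and 10.21. Lower were the gap junction genes Gjb2 (-1.29) and Gjb1 (-1.18). Keratins were higher in 2 of 6, with Krt20 at 4.62 and Krt8 at 1.04, the latter not past the rule after centring on reference genes, while its partner Krt18 (0.51) and Krt19 (0.76) did not pass. Of those named, Gjb1 and Gjb2 did not meet the size rule on the damped scale.

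Genes of the basement membrane and its receptors were higher in 6 of 20 and lower in 1. The epithelial laminin subunit genes Lama3 (10.15 in surface, 5.68 in crypt cells) and Lamb3 (10.08 and 7.24) and the integrin gene Itgb6 (9.59 and 6.73) led, and the collagen receptor gene Itga2 (7.71 and 9.46) was lower. Of the fibroblast markers, Col1a1 (0.48) and Col3a1 (0.69) were not called, Pdgfra (1.32) was higher, and Dcn (-2.01) and Lum (-2.19) were lower. Kdr (1.44) and Plvap (1.11), which mark endothelium, lay on the surface side. The part of stromal and endothelial cells was not tested. Of the genes named here, Plvap did not pass on the damped scale.

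Actin regulators and genes of cell shedding were higher in 14 of 26 and lower in 2 (median 1.11). They include the membrane protein gene Emp1 (11.87 in surface, 8.32 in crypt cells), Tns4, which links integrins to actin (11.15 and 7.71), and the small GTPase gene Rhob (10.43 and 7.23). The myosin gene Myh14 (2.55) and Pdlim2 (3.10) were higher with them. The alpha-actinin paralogs were on opposite sides, Actn4 at 12.04 against 10.34 and Actn1 at 7.77 against 9.79, and smooth muscle markers lay on the same side as Actn1 (median -1.02, or 0.05 after centring on ribosomal protein genes); their part was not tested.

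Goblet cell products divided evenly, with 5 of 16 higher in surface cells and 5 lower. Higher were Zg16, a lectin that binds bacteria in mucus (12.51 in surface, 9.23 in crypt cells), the trefoil peptide gene Tff3 (12.51 and 10.31), Capn9 (2.14) and Clca1, a mucus protease (13.26 and 11.16). Lower were Reg4 (-4.93), Spink4 (8.06 and 11.05) and Agr2, which folds mucins in the endoplasmic reticulum (9.89 and 11.94). Muc2, the main gel-forming mucin of the colon, was between these groups at 13.12 against 13.54 (-0.42).

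The enzymes that build mucin glycans were lower in 9 of 29 and higher in 3 (median -0.65, or 0.42 after centring on ribosomal protein genes). Besides Fut9 (-3.91), B3gnt6, which builds the core 3 glycans of colonic mucin, read 6.06 in surface and 8.55 in crypt cells. The sulfotransferase gene Chst4 (7.16 and 9.31) and B3gnt7 (-2.06) were lower too. The sialyltransferase gene St3gal4 (11.44 and 8.44) and Gcnt1, which builds core 2 branches (8.91 and 6.51), were higher. Folding and secretion genes of the endoplasmic reticulum were lower in 9 of 28 and higher in none (median -0.68, or 0.39 after centring), with Kdelr3, which returns escaped chaperones, at 5.11 against 7.37, the signal peptidase gene Sec11c at 7.97 against 9.89 and the disulfide isomerase gene Pdia6 (-1.73).

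Hormone genes of enteroendocrine cells fell on both sides, 2 higher and 2 lower of 10. Gcg, the precursor of glucagon-like peptides, read 7.24 in surface and 10.18 in crypt cells, and Insl5 7.90 against 9.75. Tph1, which makes serotonin in enterochromaffin cells, read 7.05 against 5.61, and Sct (1.24) was the other higher gene. None of 8 tuft cell genes was called, with Dclk1 at 0.27. In the guanylin pathway, the hormone gene Guca2a, whose product acts on enterocytes from the lumen, read 12.88 against 10.87 and the cyclic GMP phosphodiesterase gene Pde9a 10.22 against 7.83, while the receptor gene Gucy2c (0.00) and the second hormone gene Guca2b (-0.45) were not called. Among those named, damping took Sct below the size rule.

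Oxidases of the epithelium stood on opposite sides. Nox1 and its activator Noxa1 (6.60 in surface, 8.22 in crypt cells) were lower in surface cells, with differences of -4.38 and -1.62. Duox2, a hydrogen peroxide source at the apical membrane, read 10.53 against 8.00, and its maturation factor Duoxa2 8.96 against 6.13. The shared subunit gene Cyba differed by -0.11. Nos2 (1.02) was also called higher, though not after centring on reference genes. After damping, of the named genes Nos2 did not pass.

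Antimicrobial and acute-phase genes were higher in 5 of 12 and lower in 1. After Saa1 and Zg16 came Lypd8, which keeps flagellated bacteria from the mucosa, at 13.37 in surface and 11.56 in crypt cells, Ang4 (1.50) and Saa2 (1.05). Pla2g2a, a phospholipase that kills bacteria, was lower at 4.52 against 5.96. Saa2 did not pass after centring on reference genes. Damping left 3 of the 12 higher and 0 lower. Of the named genes, Ang4, Pla2g2a and Saa2 were under 2-fold after damping.

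Interferon-stimulated genes were higher in surface cells in 17 of 25 and lower in none (median 1.24). Irf7, the factor that amplifies the response, read 9.90 in surface and 5.93 in crypt cells, Ifit1, a sensor of foreign RNA caps, 7.40 against 3.79, and Oasl2 9.41 against 6.00. Oas2, which belongs to the RNA-activated synthetases, differed by 2.20, and Rsad2 (2.54) and Oasl1 (2.81) were higher too. On the damped scale 10 of the 17 still passed. The heme pair gave less, with 7 higher and 1 lower and a median of 0.51. Leukocyte markers were not called on either pair.

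Among cytokines and chemokines 6 of 13 were higher and 1 lower. Il15, which sustains intraepithelial lymphocytes, read 8.55 in surface and 5.80 in crypt cells, Il18, released through inflammasomes, 8.40 against 6.13, and the lymphocyte-attracting chemokine gene Cxcl16 7.47 against 5.37. The chemokine genes Cx3cl1 (1.99) and Cxcl14 (1.99) were higher and Ccl6 (-2.04) lower. Of 6 MHC class II genes, Ctss, a protease of antigen processing, was called at 11.43 against 9.10, while the class II genes H2-Ab1 (0.11) and Cd74 (0.25) were not.

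Related genes also parted in the smaller families. In the Clca family 3 were higher and 3 lower of 6. Clca4a (10.66 in surface, 6.70 in crypt cells), Clca4b (7.34 and 4.93) and Clca1 were on the surface side, and Clca3a1 (5.16 and 8.13), Clca3a2 and Clca3b on the crypt side; these close copies lie in a cluster, and probes may share signal between them. In the Ly6 and uPAR family Ly6g, Lypd8, Ly6g6c (1.55) and the urokinase receptor gene Plaur (1.49) were higher, and Ly6e was lower at 9.68 against 10.80. Of 3 gasdermin genes the pore-forming Gsdmd was higher, at 9.66 against 7.89, and Gsdmc2 (0.34) and Gsdmc4 (0.57) were not called. Among the genes named here, Ly6g6c was under 2-fold on the damped scale.

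Cell death genes were higher in 9 of 23 and lower in 1 (median 0.70). Pmaip1, which encodes the death promoter Noxa, read 8.15 in surface and 5.34 in crypt cells, and the survival gene Bcl2 6.28 against 7.86. Another survival gene, Mcl1, whose product Noxa binds, was higher at 12.01 against 10.53, so that genes on both sides of the death decision were among the higher ones. The death receptor gene Fas (1.53), the p53 target Perp (1.43) and the pore gene Bak1 (1.41) were higher too. Damping left 6 of the 23 higher. Of those named, Fas did not meet the size rule on the damped scale.

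Of 19 iron and heme genes 5 were higher and 1 lower. The iron exporter gene Slc40a1 read 10.95 in surface and 7.33 in crypt cells, and Heph, the oxidase that works with it, 9.99 against 7.92. Tfrc, which takes iron from transferrin into dividing cells, read 8.19 against 10.16. The porphyrin exporter gene Abcg2 read 9.93 against 6.66. Slc46a1, which imports folate and heme, was higher by 2.74. The iron importer gene Slc11a2 (0.51) and the iron reductase gene Cybrd1 (-0.12) did not pass. Of 15 zinc and copper genes 5 were higher and 1 lower. The zinc importer genes called lay on opposite sides, with Slc39a4 at 11.09 against 8.21 and Slc39a8 at 6.62 against 8.74. The exporter genes Slc30a10 (2.47) and Slc30a1 (1.66) and the metallothionein gene Mt2 (2.08) were on the surface side.

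The surface genes were examined for motifs in the same way. TTTATNG, a core of the site bound by the intestinal CDX factors, where N is any base, was in 40.0% of 10 promoters of the surface colonocyte list, against 6.69% of 11095 promoters of genes at or above the floor and 10.9% of all promoters. The 40.0% rest on 4 promoters. In the 412 promoters of genes at least 4-fold higher, which overlap this list, its share was 11.7%. In the 219 of genes at least 4-fold lower it was 9.59%. The brush border list held it in 21.1% of 19 promoters. Median GC content, the share of G and C bases, was 53.3% in the surface colonocyte promoters and 60.7% in the brush border ones. For genes at least 4-fold higher it was 56.0%, for those lower 58.3% and for those at or above the floor 61.0%. The part of base content in these shares was not tested. CAAAGTC, part of the HNF4 site, was in 8.25% of the promoters of genes at least 4-fold higher, 3.65% of those of genes at least 4-fold lower and 3.63% of those at or above the floor. In the brush border list its share was 10.5%. AGATAAG, the last motif counted, was in 3.40% of the promoters of genes at least 4-fold higher and 4.57% of those lower. Its share at or above the floor was 1.89%. The promoter of Ceacam20 (chr7:19965162-19965411, plus strand) is shown, with its TTTATNG match in capitals. Ceacam20 is the surface gene with the largest difference whose TTTATNG match lies wholly before the start, beginning 186 bases before it. That of Aqp8 runs across the start and is not shown.
Ceacam20: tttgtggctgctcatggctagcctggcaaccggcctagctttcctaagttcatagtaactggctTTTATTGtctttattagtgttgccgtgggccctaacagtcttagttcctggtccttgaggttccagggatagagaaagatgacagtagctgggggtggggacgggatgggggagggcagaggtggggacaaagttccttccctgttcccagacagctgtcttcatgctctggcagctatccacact

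MicroRNA genes were measured through probe sets for the gene or hairpin, not the mature RNA. Of 300 such genes 61 reached the floor, and 6 were higher and 1 lower. These shares were below those over all genes at or above the floor, 12.0% higher and 13.5% lower. Of 51 small nucleolar RNA genes, whose products guide the modification of ribosomal RNA, 39 reached it, and 17 were lower and none higher (median -0.75, or 0.32 after centring on ribosomal protein genes). Among the higher microRNA genes were Mir192 and Mir215, which are shown because their mature products share a seed, the bases 2 to 8 that pair with targets, given in capitals from RefSeq.
miR-192-5p: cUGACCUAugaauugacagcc
miR-215-5p: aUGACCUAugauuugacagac
The mature miR-192-5p lies at chr19:6264857-6264877 and miR-215-5p at chr1:185313610-185313630, both on the plus strand. The probe set of the Mir192 gene read 7.16 in surface and 5.57 in crypt cells, and that of Mir215 6.17 and 4.42, with both crypt levels below the floor. On the heme pair Mir192 differed by 1.21 and Mir215 by 0.71. Their neighbours Mir194-2 and Mir194-1, which give the same mature miR-194-5p, differed by 0.22 and 0.57 and were not called. Mir215 did not pass on the damped scale.

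The pair of pools from mice on heme gave the same comparison in other animals, with no array shared. There 1637 of 10698 genes at or above the floor were higher in surface cells (15.3%) and 1763 lower (16.5%). Higher on both pairs were 1056 genes, which are 81.2% of those on the control diet and 64.5% of those on heme, and lower on both were 1176, which are 80.3% and 66.7%. Of the 408 genes at least 4-fold higher on control, 382 were at least 2-fold higher on heme, and of the 224 lower 210 were lower. The sign was shared more widely, with 1285 of the 1301 higher genes above 0 on heme and 1446 of the 1464 lower genes below 0. Over 10415 genes at or above the floor on both pairs Pearson's r of the differences was 0.903 and Spearman's rho 0.889, as a description across genes. The pairs differ in diet as well as in animals, and these sources of difference cannot be told apart.

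Of the 59 lists with members at the floor, 54 had medians of the same sign on both pairs, and 20 of 20 did so among those with a median of at least 1 in size on control. Mitosis genes were again all lower, 23 of 23, with a median of -2.98 against -1.99 on control, and DNA replication genes had a median of -2.34 against -1.54. The surface colonocyte list had a median of 3.67 against 4.21 and the brush border list 1.99 against 1.73. Fatty acid oxidation genes were higher in 10 on heme against 2 on control. These differences between the pairs were not tested.

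Genes called on the control pair and not on heme include the oxidase pair, with Duoxa2 at 2.83 on control and -0.68 on heme and Duox2 at 2.53 and -0.44. Slc46a1, an importer of folate, differed by 2.74 on control and -0.21 on heme. Ido1, a tryptophan-degrading enzyme induced by interferon, differed by 4.26 and 1.96, and Ifit1bl2 (3.82) gave 0.97 on heme, where both arrays read below the floor for both of these genes. Nox1, Reg4 and Ly6g differed on heme by -4.58, -3.65 and 5.11 and kept their sides.

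**Figure D5:**
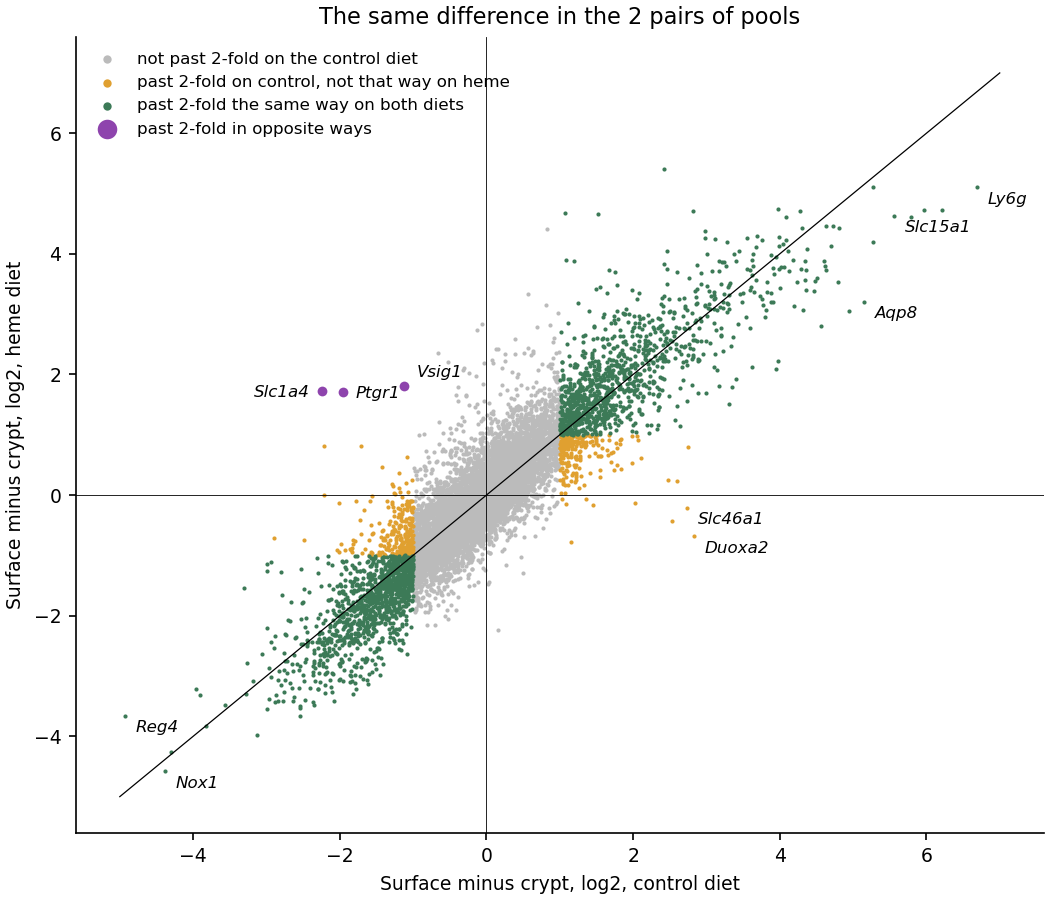
Surface minus crypt difference on the heme diet (vertical axis, log2) against that on the control diet (horizontal axis, log2) for the genes at or above the floor on both pairs. Green genes passed 2-fold the same way on both, orange genes passed on control but not that way on heme, and purple genes (Ptgr1, Slc1a4 and Vsig1) passed in opposite ways; the cloud follows the diagonal (r of 0.903), with Duoxa2 and Slc46a1 below it at the right.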

How the data were processed

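Per the submitters' processing notes, the deposited log2 values per probe set were made by the authors with RMA. The version of RMA is not stated in the sources used here, nor which arrays were processed jointly. Each array is 1 pool, and having 4 arrays limits how precise the values are. Of 35556 probe sets, 21789 had 1 gene symbol, 1621 several and 12146 none in the platform annotation, and 21698 of the 21789 were matched to the GRCm38.p6 gene table. A gene is the mean of its single-symbol probe sets (19938 genes, 999 with several). The floor, the 2-fold rule and the difference surface minus crypt were then applied, with no test.

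Alternatives were other floors, a 3-fold rule, damping (32 added to the linear value before the log2), centring on array medians, on 10 reference genes or on 46 ribosomal protein genes, cyclic loess (limma 3.58.1, R 4.3.3) and the brightest probe set of a gene. The software was Python 3.11.15, numpy 2.4.6, pandas 2.3.3 and, for plots, matplotlib 3.10.9. The 60 lists (1117 genes, 85 without a probe set of their own) and the members were chosen with earlier results of these data known. Named genes were drawn from the 15 largest differences each way, leaving out predicted, small RNA, olfactory, vomeronasal and T cell receptor and immunoglobulin genes, and in each list the 6 largest, or any member of lists of up to 16 genes, which are not all named in full. Named outside that rule, after their values were seen, were Actn1, Actn4, Agr2, Ano1, Aqp4, Atp1b1, Baiap2l2, Best2, Bmp4, Btg1, Btg2, Ccnd3, Ccne1, Cd36, Cdc6, Cdkn1b, Cdkn2c, Cdkn2d, Cftr, Cybrd1, Dpp4, Efnb1, Epha1, Ephx1, Gjb1, Gjb2, Gstm1, Gstm3, Hk1, Ido1, Ifit1bl2, Jag1, Kcne3, Kcnn4, Kcnq1, Mcm4, Muc2, Rb1, S100a9, Scnn1a, Scnn1b, Scnn1g, Slc11a2, Slc12a7, Slc16a1, Slc1a5, Slc4a4, Slc5a8, Slc7a5, Slc7a7, Sult1a1, Sult1b1, Tet2, Tk1 and Top2a, the microRNA genes and the families in the closing section. Promoter and microRNA sequences are RefSeq's. Claudin protein sequences, planned for comparison, were not used here.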

Additional observations from a re-analysis of the deposited data

Results flagged for a closer look

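Of the genes called on both pairs of pools, 3 were lower in surface cells on the control diet and higher in surface cells on heme. They stand here because the difference between compartments has opposite signs on the diets, and the difference between the diets itself was not tested, with 1 array a group. Ptgr1, an enzyme that reduces prostaglandin and leukotriene products, differed by -1.96 on control (6.01 in surface, 7.96 in crypt cells) and by 1.71 on heme. Slc1a4, a carrier of small neutral amino acids, differed by -2.24 on control (6.05 and 8.29) and by 1.73 on heme. Vsig1, a junctional adhesion protein gene, differed by -1.13 on control (4.98 and 6.11) and by 1.81 on heme. On the damped scale the control difference of Vsig1 was -0.67 and did not pass, while those of Ptgr1 and Slc1a4 were -1.55 and -1.81.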

How the results depend on the processing

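Beside 1301 higher and 1464 lower genes, the counts were 1058 and 914 on the damped scale, 6450 and 184 after centring on ribosomal protein genes and 660 and 528 with a 3-fold rule. With the 7 other settings both counts stayed within 1.5 times. Every higher gene stayed higher after centring on ribosomal protein genes. That centring gave top-ranked or listed lower genes a value above 0, which was 0.0588 for Cdt1, 0.026 for Egf, 0.011 for Eif4b, 0.0517 for Galnt3, 0.0222 for Hes6, 0.0442 for Lars, 0.0049 for Lrp5, 0.037 for Lss, 0.0576 for Mrps5, 0.0532 for Nars, 0.0593 for Pdia4, 0.005 for Rpl23, 0.0505 for Rpl28, 0.0438 for Rps21, 0.0191 for Rps25 and 0.0214 for Ssr2. Genes named only among the families of the closing section were not part of this check. The median of the smooth muscle list became 0.0528. These sign changes follow from adding 1.07 to each difference. Of 891 top-ranked and listed genes, 477 were called, and the call was lost by 156 after centring on ribosomal protein genes, beside the 16 that changed sign there, 77 on the damped scale, 29 after median centring, 25 after cyclic loess, 17 after centring on reference genes and 3 with the brightest probe set. No paired analysis was possible because the control diet has 1 surface and 1 crypt pool, which leaves no residual degrees of freedom, and no array could be left out. A fit over both diets, which would take the difference between the diets as its error, was not run. Differences of genes with a level below the floor are the least certain in size.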

Other observations

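Some gene families, grouped by the start of their symbols and chosen after their values were seen, had more genes called on one side than on the other. Some of the cytochrome P450, myosin and annexin genes are also members of the lists above. Of 28 cytochrome P450 genes (Cyp) at or above the floor 16 were at least 2-fold higher at the surface and 2 lower (median 1.37). The higher ones include Cyp2d9, Cyp2d10, Cyp2d12, Cyp2d13, Cyp2d22, Cyp2d34 and the pseudogene Cyp2d37-ps. As close paralogs these may share probe signal, so they may not be separate cases. Of 9 retinol dehydrogenase genes, counted with a pseudogene, 5 were higher and none lower. The 5 were the pseudogene Rdh18-ps (9.43 in surface, 5.35 in crypt cells), Rdh16 (8.77 and 5.07), Rdh9 (8.44 and 5.47), Rdh16f2 (7.11 and 5.06) and Rdh19 (6.25 and 4.57). All 5 crypt levels were below the floor, and as close copies these genes may share probe signal. Of 17 myosin genes 8 were higher and 1 lower, with Myo15b at 11.97 against 8.48 and Myo19, a motor on mitochondria, at 9.65 against 7.47. Of 10 genes of ESCRT-III subunits (Chmp), which cut membranes from the inside, 4 were higher and none lower, with Chmp1b at 9.43 against 7.25 and Chmp2b at 9.37 against 7.66. Annexin genes were called on both sides, with 4 of 10 higher and 2 lower (median 0.53). Anxa8 had the largest difference, at 10.52 against 5.92, and the lower genes were Anxa13 (-1.69) and Anxa5 (-1.03). The surface level of Anxa13 was below the floor. Anxa5 falls under 2-fold when array medians are centred (0.11 added) and turns above 0 after centring on ribosomal protein genes (1.07 added).

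On the crypt side, 10 of 18 nucleoporin genes were lower and none higher (median -1.08), among them Nup210 (5.82 in surface, 7.77 in crypt cells), Nup133 (5.86 and 7.73) and Nup205 (6.53 and 8.21). Of 8 genes of the RNA exosome 5 were lower and none higher (median -1.21). In the network of factors that share DNA sites with Myc, Myc itself read 6.05 in surface and 8.80 in crypt cells and its relative Mycl 5.65 and 6.74. The difference of Mycl was -1.09, with its surface level below the floor. Centring on array medians, which adds 0.11 to every difference, takes Mycl under 2-fold. Mxd1, a repressor that displaces Myc from their shared partner, read 11.83 against 7.48, the repressor gene Mxi1 8.33 against 6.64, and Max, that partner, 11.21 against 8.48. On the heme pair Myc differed by -3.26, Mxd1 by 3.57, Mxi1 by 2.02 and Max by 2.16. The other members at or above the floor were not called on control, with differences of 0.23 for Mnt, 0.49 for Mlx, -0.39 for Mxd4 and -0.56 for Mga.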
